A study of Mus musculus with 4 samples.

Results

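The 10 genes described here encode apolipoproteins and the protein that loads lipid onto them, and they were taken by symbol from the 78028 gene rows of 4 count tables. All 10 were found. The genes are Apoa1, Apoa2, Apoa4, Apob, Apoc1, Apoc3, Apoe, Apoh, Apom and Mttp. The 4 libraries are bulk polyadenylated RNA from cells labelled hepatocyte-like. Each came from a culture differentiated on its own from E14TG2a, a mouse embryonic stem cell line, by the protocol named A-HIC, for advanced hepatic-inducing cocktail. They form 1 group with no control, and keep the labels' replicate numbers as libraries 1 to 4. All 4 come from 1 cell line, so the spread between them is that of cultures and not of animals.

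Lipoproteins carry triglyceride and cholesterol through the blood. In the liver, and in the gut and the yolk sac endoderm, apolipoprotein B is synthesised into the endoplasmic reticulum. There the microsomal triglyceride transfer protein adds lipid to it and a very low density lipoprotein is secreted. The smaller apolipoproteins of the A, C and E classes move between particles, where they activate or restrain lipases and bind receptors. High density lipoprotein forms when apolipoprotein A-I takes up cholesterol that cells export.

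The label of the cells was first set against marker genes. Of 17 hepatocyte markers, 3 reached 1 TPM, a level scaled for gene length and library size, in all 4 libraries. Such genes are called expressed here. A further 5 had 3 counts or fewer in every library, and such genes are called not detected. Of all protein-coding genes, 16.7% were not detected. The 3 expressed markers were the plasma proteins Ttr, Afp and Trf. Ttr had 50, 371, 56 and 204 counts in libraries 1 to 4, Afp had 82, 1027, 123 and 312, and Trf had 361, 401, 278 and 261. The hepatocyte markers Cyp2e1, Fabp1 and Serpina1c had 0 counts in all 4. Alb, serum albumin, had 11, 171, 0 and 12 counts in libraries 1 to 4. In contrast, all 10 pluripotency markers with a known gene length and all 14 parietal endoderm markers were expressed, as were 12 of 14 visceral endoderm markers. The other 14 hepatocyte markers were under 1 TPM in at least 1 library, so the name hepatocyte-like is used here only as the label. The libraries held 29518642 to 40154964 counts each.

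Among the 10 genes, 4 were expressed in all 4 libraries, against 63.5% of all 19900 protein-coding genes with a length. These were Apoe, Apoc1, Mttp and Apom. Apoa1 and Apob had counts in every library but were under 1 TPM in at least 1, and Apoa2, Apoa4, Apoc3 and Apoh were at or near 0. The median of the 10 mean levels was 2.03 TPM, beside 7.62 TPM over all protein-coding genes. Together the 10 genes took 0.0370% ± 0.0018 of all counts (SD, n = 4), and Apoe alone took 92.6% ± 1.19 of that share.

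**Figure D1:**
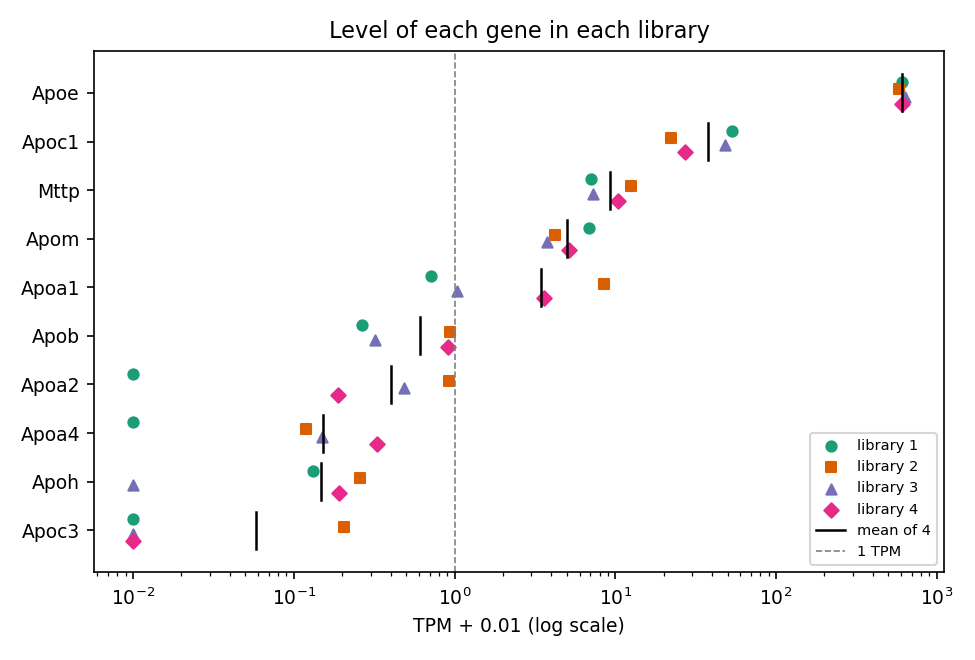
TPM of each of the 10 genes in each library, plotted as TPM + 0.01 on a log axis; symbols are libraries, black bars are means of 4 and the dashed line marks 1 TPM. Apoe lies between 584 and 638 TPM, while Apoa2, Apoa4, Apoh and Apoc3 lie under 1 TPM in every library, with symbols at the left edge standing for 0 counts.

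Apoe encodes the apolipoprotein that binds lipoprotein receptors and clears remnant particles, and many cell types outside the liver make it. It had 13412, 12686, 10733 and 13536 counts in libraries 1 to 4. Its levels were 608, 584, 638 and 608 TPM, a mean of 610 ± 21.9 TPM (SD, n = 4), and it ranked 186th of the protein-coding genes. The 4 libraries differed by 1.15-fold at most in CPM, counts scaled for library size alone. The SD of its log2(CPM + 1) was 0.0894, beside a median of 0.178 over 15194 genes with a mean of 1 CPM or more. Macrophages also make Apoe, and the marker list for them gave 5 of 10 genes expressed, with summed levels of 79.0 to 104 TPM. Those 5 were Cd68, Csf1r, Lyz2, Cd14 and Tyrobp, with means of 72.0, 5.47, 5.40, 3.96 and 2.44 TPM. The other 5 averaged between 0.130 TPM, for Ptprc, and 1.53 TPM, for Fcer1g, and every gene of the list had counts in all 4 libraries. The part of such cells in the Apoe level was not tested.

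Apoc1 lies next to Apoe on chromosome 7 and encodes a small apolipoprotein that restrains lipoprotein lipase and remnant uptake. It had 408, 168, 280 and 210 counts, or 53.1, 22.2, 47.8 and 27.1 TPM, in libraries 1 to 4. Libraries 1 and 3 were the high ones, and the highest was 2.58-fold the lowest. Apoe exceeded Apoc1 in every library, by 11.4-fold in library 1, 26.3-fold in library 2, 13.3-fold in library 3 and 22.4-fold in library 4. The log2 difference between these neighbours in the order of levels was 4.11 ± 0.58 (SD, n = 4). The other genes of that cluster were scarce. Apoc4 had 5, 2, 5 and 0 counts, and Apoc2, the cofactor that lipoprotein lipase needs, had 0 counts in all 4 libraries. A count of 0 allows up to 3 counts, or 0.0747 to 0.102 CPM, and 0.149 to 0.203 CPM if both ends of a fragment were counted, for counting error only.

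Of 11 listed genes of other families that neighbour this cluster or the one on chromosome 9, 10 were expressed. Tomm40, a mitochondrial import pore subunit beside Apoe, stood at 92.8 ± 7.33 TPM, and Nectin2, a cell adhesion protein, at 119 ± 3.85 TPM. On chromosome 9, Apoa1, Apoc3, Apoa4 and Apoa5 lie in a row. Zpr1, a zinc finger protein just beyond Apoa5, stood at 69.0 ± 6.69 TPM, and Pafah1b2 on the other side of the cluster at 80.3 ± 17.1 TPM. Tagln, further out on that side, was the neighbour not expressed, at 0.926, 1.29, 0.895 and 0.725 TPM in libraries 1 to 4. Within the row, Apoa1 was the only gene with more than 6 counts in any library.

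Apoa1 encodes the main protein of high density lipoprotein and the activator of the enzyme that esterifies its cholesterol. It had 9, 107, 10 and 46 counts in libraries 1 to 4, or 0.705, 8.53, 1.03 and 3.57 TPM. Library 2 was 11.2-fold above library 1 in CPM, a ratio that rests on 9 counts in library 1 (95% Poisson interval 4.12 to 17.1 counts, for counting error only). It was the widest ratio among the 6 genes with counts in all libraries and a mean of 1 CPM or more. Apoa1 reached that mean only through library 2. In library 2 Apoa1 stood at 2.67 CPM, against a mean of 0.574 CPM in the other 3, a log2 fold change of 2.26. This did not pass edgeR's quasi-likelihood test (adjusted p = 0.636 over 22186 genes, unadjusted p = 0.0176). The same difference was called by edgeR with no filter on low counts (log2 fold change 2.25) and without library 4 (log2 fold change 3.32). Genes beyond the 10 were called in both runs too, so such a call is not particular to Apoa1. They were a far smaller part of the genes tested with no filter than without library 4. Without library 4, fewer libraries gave the spread. Over 6 alternatives the adjusted p of Apoa1 in library 2 ranged between 1.26e-05 and 0.998 (edgeR or DESeq2). In all alternatives library 2 was above the others, with log2 fold changes of 1.87 to 3.32.

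The remaining A and C class members and Apoh were near the counting limit. Apoa2, the second protein of high density lipoprotein, had 0, 5, 2 and 1 counts in libraries 1 to 4. Apoa4, a protein of gut and liver particles, had 0, 2, 2 and 6 counts. Apoc3, which inhibits lipoprotein lipase and remnant clearance, had 2 counts in library 2 and 0 in the others. It was the only one of the 10 genes not detected, beside 16.7% of all protein-coding genes. Apoh, a phospholipid-binding plasma protein also called beta-2-glycoprotein I, had 2, 4, 0 and 3 counts. No order among these 4 genes can be read from such counts. Their order by mean TPM, Apoa2, Apoa4, Apoh and Apoc3, was kept by no neighbouring pair in all 4 libraries. Apoh overlaps Prkca on the opposite strand, taking whole genes with their introns, and the libraries keep no strand. Any reads of that stretch cannot be assigned, and whether there were such reads was not checked.

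Apom encodes a lipocalin that rides on high density lipoprotein and carries sphingosine-1-phosphate. It had 72, 43, 30 and 54 counts, or 6.88, 4.18, 3.76 and 5.12 TPM, in libraries 1 to 4. Library 1 was highest and library 3 lowest, 1.87-fold apart in CPM. Unlike Apoa1, it was not highest in library 2. Apom and Apoa1 were neighbours in the order of levels, and their ranges overlapped. Apom was above Apoa1 in 3 of 4 libraries, with a log2 difference of 1.10 ± 1.76 (SD, n = 4).

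Apob and Mttp are the pair on which assembly depends, as apolipoprotein B forms the frame of the particle and Mttp encodes the transfer protein that lipidates it. Apob had 37, 132, 34 and 130 counts, or 0.257, 0.933, 0.310 and 0.896 TPM, in libraries 1 to 4. Mttp had 449, 786, 355 and 672 counts, or 7.01, 12.5, 7.27 and 10.4 TPM. For both genes libraries 2 and 4 were above libraries 1 and 3. The highest was 3.36-fold the lowest for Apob and 1.65-fold for Mttp, in CPM. Mttp exceeded Apob in every library, by 27.2-fold, 13.4-fold, 23.4-fold and 11.6-fold in libraries 1 to 4, in TPM. The Mttp gene overlaps Trmt10a on the opposite strand, a gene with 1086, 1179, 949 and 1113 counts. The overlap is of whole genes, introns included. Any reads in it cannot be told apart, and whether counted reads fall there was not checked.

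The stretches around the gene starts of Apoa1, Apob and Mttp are shown because these 3 genes were each highest in library 2. RefSeq gives them on GRCm38.p6, not on the submitters' build, as the 250 bases before and 50 after the start. Apoa1 is at chr9:46228380-46228679 on the plus strand, Apob at chr12:7977427-7977726 on the plus strand and Mttp at chr3:138143369-138143668 on the minus strand.
Apoa1: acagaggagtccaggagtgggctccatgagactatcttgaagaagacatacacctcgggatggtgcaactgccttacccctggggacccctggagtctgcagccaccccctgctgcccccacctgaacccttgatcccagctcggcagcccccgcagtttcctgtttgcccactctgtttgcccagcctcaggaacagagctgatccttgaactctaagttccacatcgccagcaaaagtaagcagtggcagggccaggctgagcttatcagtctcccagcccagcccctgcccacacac
Apob: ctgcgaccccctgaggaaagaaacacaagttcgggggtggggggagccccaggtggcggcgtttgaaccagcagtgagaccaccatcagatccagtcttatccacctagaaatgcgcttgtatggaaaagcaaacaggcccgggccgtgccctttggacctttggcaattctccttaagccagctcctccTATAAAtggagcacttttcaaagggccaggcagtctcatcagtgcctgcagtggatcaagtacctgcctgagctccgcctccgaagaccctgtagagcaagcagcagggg
Mttp: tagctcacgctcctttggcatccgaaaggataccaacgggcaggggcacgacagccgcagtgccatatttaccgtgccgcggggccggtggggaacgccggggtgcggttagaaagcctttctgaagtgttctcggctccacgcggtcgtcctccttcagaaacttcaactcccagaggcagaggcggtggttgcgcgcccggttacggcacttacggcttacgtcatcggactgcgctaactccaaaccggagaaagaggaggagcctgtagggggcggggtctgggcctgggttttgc
Capitals mark matches, on either strand, to 5 motifs. These were TATAAA, the nuclear receptor half-site AGGTCA, the HNF4 motif CAAAGTCC, the GATA motif AGATAA and the forkhead motif TGTTTAC. The only match in these 3 windows was TATAAA in Apob, 60 bases before the start. That motif was in 13.6% of all 32817 promoter windows of the table, and the other motifs, in the order given, were in 16.3%, 1.42%, 11.2% and 3.65% of them. A window without a match says only that these letters are not in it.

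Each library was also set against the other 3 for all genes. A single library has no spread of its own, so the fit lends it that of the rest. Of the 10 genes, 6 passed the filter on low counts. None of the 6 was called by edgeR's quasi-likelihood test in any of the 4 comparisons, nor by DESeq2. The background was equally empty, with 0.0%, 0.0%, 0.00451% and 0.0% of 22186 genes called for libraries 1 to 4 by edgeR. DESeq2 called 0.0508%, 0.447%, 0.018% and 0.018% of the genes it gave an adjusted p. At an unadjusted p under 0.05, edgeR gave 1 of the 6, Apoa1 in library 2, beside 5.34%, 7.5%, 2.2% and 1.81% of all genes in the 4 comparisons. With DESeq2 they were Apoa1 and Apob for library 1 and Apoa1 and Apoc1 for library 2, beside 5.15%, 6.37%, 2.02% and 1.67% of all genes. Over the 6 genes the lowest adjusted p was 0.760, 0.636, 1.00 and 1.00 for libraries 1 to 4 (edgeR).

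**Figure D2:**
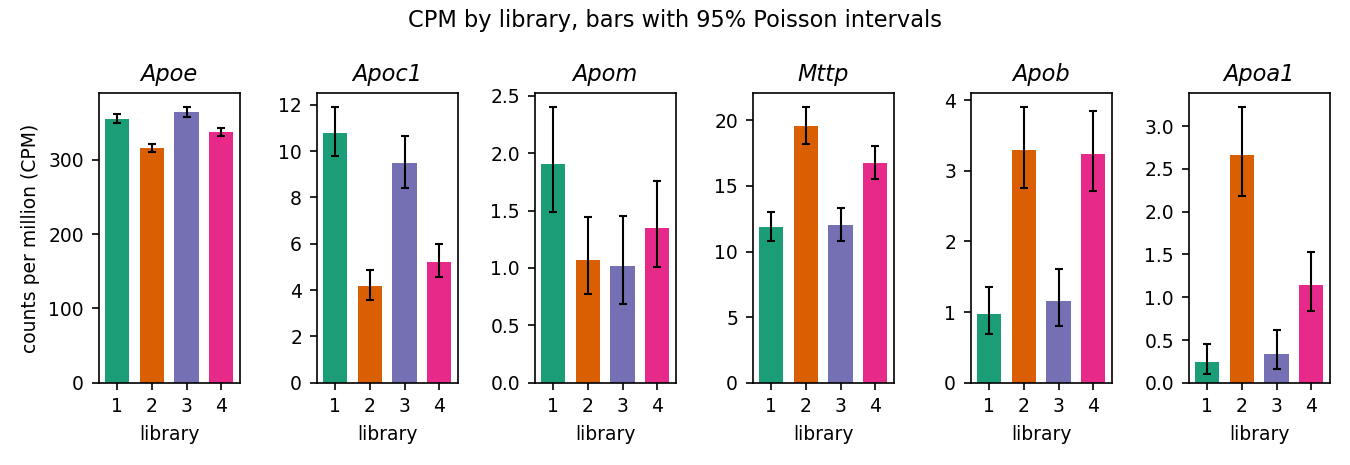
CPM of the 6 genes with a mean of 1 CPM or more, 1 bar per library; error bars are 95% Poisson intervals of the counts, which cover counting error only and are too narrow if both ends of a fragment were counted. Apoa1, Apob and Mttp are highest in library 2, Apoc1 and Apom are highest in library 1, and Apoe lies between 316 and 364 CPM.

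The 6 genes were not all highest in the same library, a ranking that was not itself tested. Apoa1, Apob and Mttp were highest in library 2, Apoc1 and Apom in library 1 and Apoe in library 3. For Apoe the libraries differed by 1.15-fold at most in CPM. Among all genes with a mean of 1 CPM or more, 22.8%, 34.2% and 24.3% were highest in libraries 2, 1 and 3. The SD of log2(CPM + 1) was 0.722 for Apoa1, 0.606 for Apob, 0.574 for Apoc1, 0.335 for Mttp and 0.240 for Apom. Of all 15194 genes, 98.6%, 97.3% and 96.7% had a smaller SD than Apoa1, Apob and Apoc1, while 15.9% had a smaller SD than Apoe. Apoa1 entered this set, at a mean of 1.10 CPM, through its 2.67 CPM in library 2. In libraries 1, 3 and 4 it stood at 0.238, 0.339 and 1.15 CPM, so its SD is partly set by that cut. The median over the 6 genes was 0.455, beside 0.178 over all genes, which were not matched to the 6 in level. Counting error adds more to the spread of genes with few counts, such as Apoa1, Apob and Apom, than to that of Apoe. The TPM ratio of Apoa1 to Apoc1 was 0.383 in library 2 and 0.0133 in library 1.

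**Figure D3:**
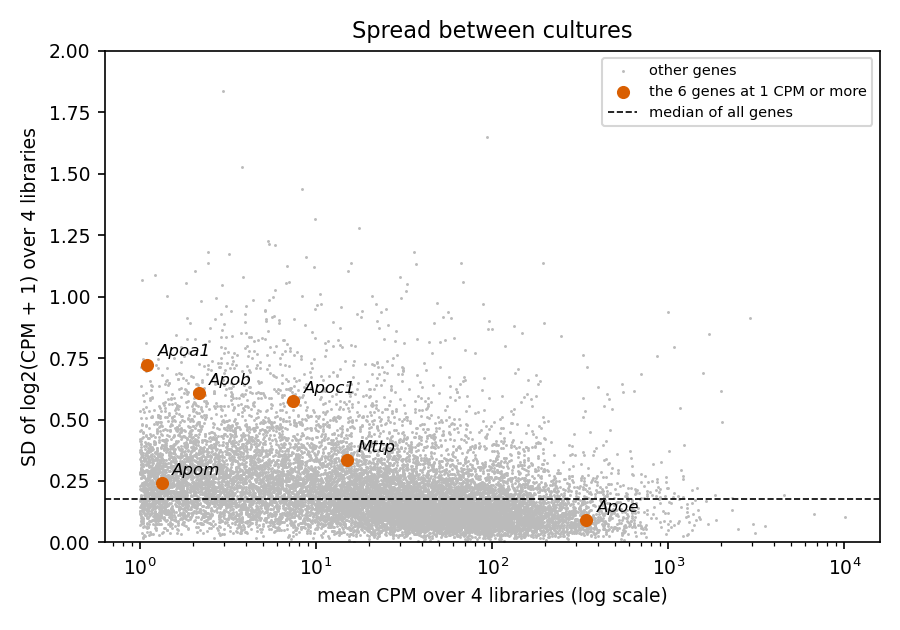
SD of log2(CPM + 1) over the 4 libraries against mean CPM (log axis) for 15194 genes with a mean of 1 CPM or more; the dashed line is their median of 0.178. Apoa1, Apob and Apoc1 lie at 0.574 to 0.722, in the upper part of the cloud, and Apoe lies at 0.0894, under the line.

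Marker genes of other cell types differed between the libraries too. The summed visceral endoderm list stood at 170, 431, 228 and 315 TPM in libraries 1 to 4, highest in libraries 2 and 4 as Apoa1, Apob and Mttp were. Visceral endoderm is the yolk sac layer that secretes lipoproteins to the early embryo. Its products Afp and Ttr, which are also on the hepatocyte list, were highest in library 2 and next in library 4. Cubn and Amn, the endocytic receptor pair of that layer, were not. Cubn stood at 59.3, 54.4, 64.7 and 32.2 CPM and Amn at 5.05, 3.19, 6.06 and 2.87 CPM, both highest in library 3 and lowest in library 4. The parietal endoderm list, with all 14 genes expressed, summed to 3824, 11480, 4611 and 8871 TPM, and the fibroblast list, with all 10 expressed, to 2517, 4598, 2188 and 3461 TPM. The 17 hepatocyte markers summed to 22.8, 92.1, 23.5 and 39.9 TPM. The pluripotency list ran the other way, at 7750, 4232, 7008 and 5292 TPM, as did Apoc1. The intestine list, with 5 of 11 genes expressed and Fabp1 at 0 counts, summed to 27.9, 14.2, 31.1 and 17.4 TPM. The part of these cell types in the levels of the 10 genes was not tested, and in bulk RNA fewer cells of a type and less RNA per cell cannot be told apart.

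Each of the 6 genes was also matched to the protein-coding genes whose centred log2(CPM + 1) lay nearest to it over the 4 libraries, among 9610 genes with a mean of 10 CPM or more. With 4 values a gene, many genes lie close. The 1 added to CPM also flattens genes near 1 CPM more than genes of 10 CPM or more. Nearness for Apoa1, Apob and Apom therefore does not mean equal fold changes. Apoa1 rose from 0.238 CPM in library 1 to 2.67 CPM in library 2, while its nearest gene, Ccn2, rose from 44.55 to 145.2 CPM. For Apoa1 the nearest were Ccn2, Ccl2 and Aff2, at Euclidean distances of 0.0842, 0.0994 and 0.0996, and 11 genes lay within 0.2. For Apob they were Gpc6, Stc1 and Ccl7 (0.0583, 0.0665 and 0.0743), with 22 genes within 0.2. Mttp lay nearest to Creb3l2, Calu and Sgce (0.0194, 0.0302 and 0.0347), with 274 genes within 0.2. Apoc1 lay nearest to Mymx, Pacsin1 and Mapt (0.109, 0.115 and 0.130), with 17 within 0.2. Apom lay nearest to Glrx, Kptn and Arf2, at 0.0375 to 0.0794, with 110 within 0.2. For Apoe, whose values hardly moved, 3426 genes lay within 0.2, led by Fbxl18 and Coq9.

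The rest of the pathway was described from 5 lists of 89 genes in all, 77 of which passed the filter on low counts. By edgeR none was called for any library, while 11, 20, 2 and 2 of the 77 had an unadjusted p under 0.05 in libraries 1 to 4. These are 14.3%, 26.0%, 2.6% and 2.6% of the 77, beside 5.34%, 7.5%, 2.2% and 1.81% of all genes. DESeq2 called 1 of the 77, Lpl in library 2, beside 0.447% of all genes there. Among other apolipoproteins, 2 of 10 were expressed and 4 not detected, beside 63.5% and 16.7% of all protein-coding genes. Clu, which encodes the apolipoprotein and extracellular chaperone clusterin, had 3530, 10466, 3296 and 6948 counts, a mean of 179 ± 90.3 TPM with libraries 2 and 4 high. Apod, a lipocalin, stood at 2.27 ± 1.37 TPM with library 1 high. Apof stood at 1.37 TPM, Apon had 3, 0, 8 and 2 counts, and Apoa5, which helps lipoprotein lipase act, had 0 counts in all 4 libraries.

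The secretory machinery that lipoproteins share with other cargo was abundant, with 21 of 24 assembly and secretion genes expressed. P4hb, the disulfide isomerase that is also the partner subunit of the Mttp protein, had 38424, 58377, 30680 and 53642 counts, a mean of 1619 ± 343 TPM. It was 161-fold to 188-fold above Mttp in the 4 libraries, in TPM. The chaperones Pdia3, Hspa5 and Hsp90b1 stood at 1097 ± 200, 970 ± 169 and 925 ± 186 TPM. Surf4, Sar1b and Mia3 act in the export of lipoproteins and other large cargo. Picked once their levels were known, they averaged 425 ± 52.5, 177 ± 13.9 and 131 ± 20.2 TPM. Apobec1, the enzyme that edits Apob RNA, stood at 35.2 ± 6.41 TPM, whereas A1cf, an RNA-binding cofactor of that editing, had 0 counts in all 4 libraries. Cideb, which acts in lipid loading of the particle, stood at 0.509 ± 0.215 TPM. Tm6sf2 and Pla2g12b, chosen after their values were seen, also act in that step, and stood at 0.885 ± 0.542 and 13.5 ± 7.89 TPM. Pla2g12b had 47, 206, 102 and 272 counts, with library 4 highest.

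**Figure D4:**
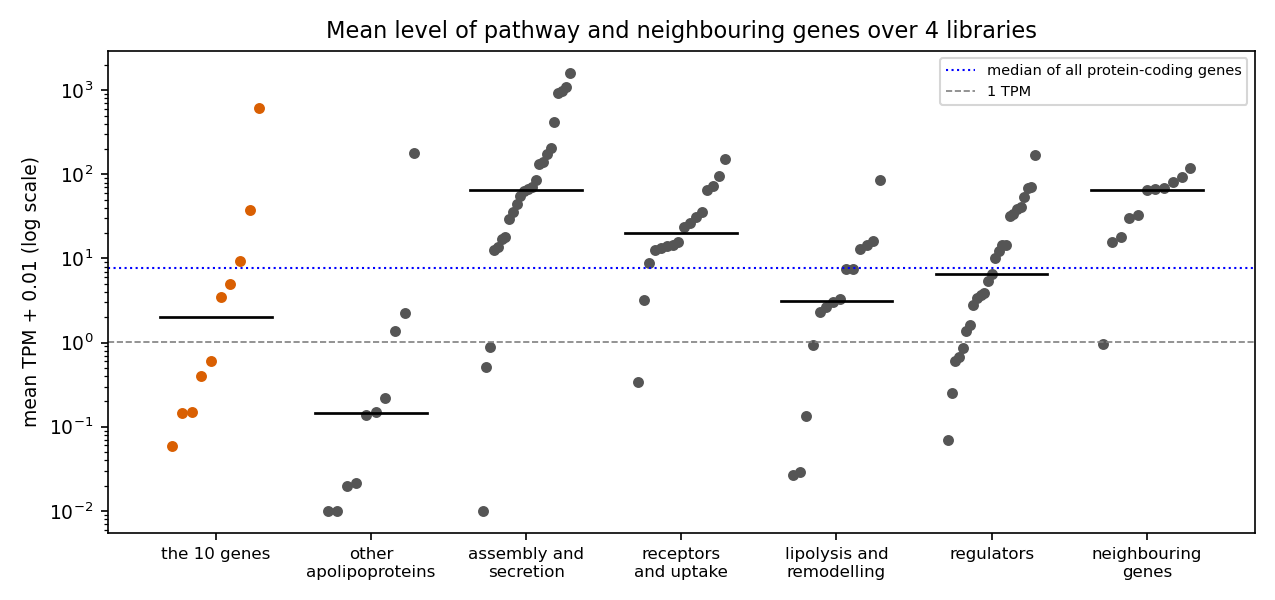
Mean TPM over 4 libraries, plotted as TPM + 0.01 on a log axis, for the 10 genes, 5 pathway lists and the genes that neighbour the clusters; points are genes, black bars are list medians, the dotted line is the median of all protein-coding genes (7.62 TPM) and the dashed line is 1 TPM. The medians were 2.03 TPM for the 10 genes and 0.135 TPM for other apolipoproteins, against 65.1 TPM for assembly and secretion and 19.8 TPM for receptors and uptake.

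Of the receptors and uptake genes, 15 of 16 were expressed. Vldlr, which binds Apoe-rich particles, had 1181, 2021, 850 and 1469 counts, with library 2 highest. Lrp1 and Lrp2, large endocytic receptors of lipoproteins and other ligands, stood at 71.8 ± 13.8 and 14.5 ± 2.31 TPM, and Lrpap1, their chaperone, at 151 ± 26.8 TPM. Dab2, an endocytic adaptor for these receptors, stood at 94.6 ± 30.0 TPM. Scarb1, the high density lipoprotein receptor, stood at 26.6 ± 2.40 TPM. Cd36, a fatty acid and lipoprotein scavenger receptor, had 0, 38, 6 and 3 counts.

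Of the lipolysis and remodelling genes, 10 of 14 were expressed. Pltp, the phospholipid transfer protein, was highest at 84.9 ± 8.73 TPM, and Lcat, the cholesterol-esterifying enzyme that Apoa1 activates, stood at 2.66 ± 0.410 TPM. Lpl, lipoprotein lipase, had 806, 3392, 939 and 1495 counts. In library 2 it stood at 84.5 CPM, against a mean of 30.1 CPM in the other 3, a log2 fold change of 1.57 that DESeq2 called (adjusted p = 0.00120) and edgeR's quasi-likelihood test did not (adjusted p = 0.473). Abca1, the exporter that loads Apoa1 with cholesterol, had 878, 2150, 1029 and 1862 counts, with libraries 2 and 4 high. Angptl4, an inhibitor of Lpl, stood at 13.1 ± 2.15 TPM. Gpihbp1, the endothelial anchor of Lpl, and Pon1, an enzyme of high density lipoprotein, had at most 2 counts in any library.

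Among regulators, 19 of 25 were expressed. Hnf4a, a nuclear receptor that acts on apolipoprotein genes in the liver, stood at 5.43 ± 1.45 TPM. Its levels were 5.16, 8.99, 6.37 and 6.88 CPM in libraries 1 to 4, with library 2 highest. Foxa2, a forkhead factor of endoderm, had 174, 527, 177 and 463 counts, a mean of 14.3 ± 7.13 TPM. Gata4 stood at 68.9 ± 36.9 TPM. Srebf2 and Srebf1, which drive sterol and fatty acid genes, stood at 172 ± 7.97 and 53.4 ± 3.39 TPM, and Nr1h2, an oxysterol receptor that acts on Apoe and Abca1, at 70.4 ± 10.5 TPM. Onecut1 and Ppargc1a were lowest in mean TPM, with 2, 23, 4 and 10 counts and 8, 4, 0 and 4 counts.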

How the data were processed

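Each library has 1 deposited table of raw, unnormalized counts. The submitters' processing notes name STAR, featureCounts and GRCm39 (mm39); tool versions, gene models and counting options: not given in the sources used here. Libraries were unstranded and paired-end, per the labels' protocols. Of deposited counts between 1 and 8, 60.0% to 62.6% were even, as happens where each end of a pair is counted, so counting intervals may be too narrow. Libraries held 37797816, 40154964, 29518642 and 40124479 counts. Treatment of reads with several alignments is not stated.

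CPM were computed from the counts alone. TPM used exon-union lengths of GENCODE M21 (GRCm38), matched for 48779 of 78028 rows (98.7% to 98.9% of counts). Log scales used TPM + 0.1 or CPM + 1. Each library was tested against the other 3 with edgeR 4.0.16 (quasi-likelihood, TMM, filterByExpr, which here needs 1 library to pass). Adjustment was over all genes by Benjamini-Hochberg at 0.05, and DESeq2 1.42.0 was run too. Only the edgeR fit was first checked on simulated counts, with no filter and the same dispersion for every gene. That dispersion was below the common one of these data and below those of Apoc1 and Mttp, though above that of Apoe. Changes were placed only in genes above the levels of Apoa1, Apob and Apom, so the check does not cover those genes. An exact sign test over 4 libraries cannot go below p = 0.125 (two-sided), so levels of different genes were compared without a test. Software was R 4.3.3 and Python 3.11.15 with pandas 2.3.3, SciPy 1.17.1 and matplotlib 3.10.9. The genes, lists and motifs were chosen with earlier results of these data known. Named are all 10 genes, the 4 highest and 2 lowest genes of each list, fixed pathway genes and the 3 nearest genes by profile; a few others, such as Apoc4, Csf1r, Ptprc, Cubn, Amn and the hepatocyte markers at 0, were added after their values were seen. A few genes that this rule names are not reported here. Reference hepatocyte data of the study are not analysed here.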

Additional observations from a re-analysis of the deposited data

Results flagged for a closer look

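Apoc3 stood at 0.194 TPM in library 2 and at 0 in the other 3, so that library was flagged as far from the others. The value rests on 2 counts. The usual chance rate of about 1 in 20 groups of 4 does not hold where the other values are all 0. Such a gene is flagged whatever its count, so the flag carries no weight here. A total of 10 genes was looked at.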

How the results depend on the processing

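The number of expressed genes was 4 of 10 and lay between 4 and 5 under every alternative run (CPM, thresholds of 0.5 and 2 TPM, TMM sizes, leaving out each library). The count of genes called for a lone library was 0 in the reported fits. With no filter on low counts it became 1 for library 2, namely Apoa1. When 1 of the other libraries was left out it ranged between 0 and 4 for library 1, 0 and 4 for library 2, 0 and 3 for library 3 and 0 and 2 for library 4. The high values came without library 3, 4, 1 and 2, in that order, where 21599, 21566, 21374 and 21506 genes were tested. In each, only 2 libraries remained to give the spread, and edgeR then called 1947, 3030, 1233 and 1593 genes in all. A filter that all 4 libraries had to pass, added after seeing the data, left out Apoa1 and called 0 of the 10. The share of counts became 0.0666% as a share of summed TPM, and 0.0364% to 0.0378% with a library left out. With the longest transcript as length, Apoe stood at 694 TPM. The median SD lay between 0.347 and 0.517. The other 106 values moved by less than the spread or within 1.5 times. Under 10 counts a library, which holds for Apoa2, Apoa4, Apoc3 and Apoh and for Apoa1 in library 1, depth limits what can be read. No paired analysis was possible because the libraries form 1 group.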
